A study of Mus musculus with 10 samples.

Results

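Etoposide was compared with no etoposide in pre-B cells that had also been given IFN, using 2 of the 10 sequencing libraries of the series. They were taken by their titles, IFN with etoposide and IFN alone, and every junction on chromosomes 1 to 19 and X was kept: 6838 with etoposide and 4278 in IFN alone, 11116 of the 68338 junctions of the series. The study mapped where a break cut at a fixed place in the genome was joined to other broken ends. The cells were Abelson-transformed pre-B cells of C57BL/6 mice that lacked LIG4 (LIG4-/-), and this background was shared by both libraries. Both cultures were held in imatinib for 48 h, which stops cycling of such cells in G1, and in both a zinc finger nuclease (ZFN) was switched on with doxycycline at 1 µg/ml after 24 h. The tested cells also received 50 µM etoposide for 2.5 h with the pretreatment kept on, and recovered for 12 h. The titles give IFN as an abbreviation without its type or dose. The labels name the first etoposide library without IFN, rather than IFN alone, as the control of the IFN with etoposide library, so values of the etoposide libraries without IFN are set beside the pair where they bear on it.

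Etoposide stalls type II topoisomerases after they have cut DNA and before they reseal it, which can leave free ends in DNA that is being transcribed or looped. High-throughput genome-wide translocation sequencing counts such ends by what they are joined to: a primer next to the nuclease cut (the bait) reads through into the partner (the prey). LIG4 is the ligase of classical end joining, so in its absence joins are made by alternative end joining, which often uses a few bases present on both ends. Pre-B cells held in G1 also cut their kappa light chain genes with RAG, a source of prey apart from the drug.

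The bait lies on mouse chromosome 6, within the T cell receptor beta locus, between Trbc2 (chr6:41546730-41548181, mm10) and Trbv31 (chr6:41557693-41558371). The stretch that reads into the break is shown because the position of the bait end differed between the libraries. It covers chr6:41554863-41554972 on the plus strand, the break follows its last base, and the capitals mark the bases 73 to 71 inside the break. It was identical in all 421 reads of both libraries with an ungapped alignment across it.

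bait: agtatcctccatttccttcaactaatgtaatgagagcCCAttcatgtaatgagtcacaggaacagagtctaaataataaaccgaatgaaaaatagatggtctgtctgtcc

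Joins are shown next as they were sequenced, with the bait on the left, the prey on the right, and in capitals the bases that fit both. The prey lie in Exoc4 (chr6:33550124), a subunit of the exocyst, in Snd1 (chr6:28727977), a nuclease domain protein, in Cyfip2 (chr11:46311677), a member of the actin-regulating WAVE complex, and in Usp18 (chr6:121247900), which removes ISG15 from proteins. They came from the IFN with etoposide library, where each bait ends 71 or 72 bases inside the break. The last comes from IFN alone and lies in Foxp1 (chr6:99061331), a transcription factor of early B cells, with the bait ending 56 bases inside the break.

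Exoc4: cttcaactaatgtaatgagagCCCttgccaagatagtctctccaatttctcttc
Snd1: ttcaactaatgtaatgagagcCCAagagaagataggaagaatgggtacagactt
Cyfip2: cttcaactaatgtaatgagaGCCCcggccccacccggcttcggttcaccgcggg
Usp18: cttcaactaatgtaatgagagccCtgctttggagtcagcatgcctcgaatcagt
Foxp1: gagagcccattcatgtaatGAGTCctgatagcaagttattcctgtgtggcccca

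Each side of the pair was 1 library, so no difference below has a replicate check. Fisher's exact test and the 95% intervals compare these 2 libraries and cover counting error only, and reads without molecular identifiers are not independent molecules. Adjusted p-values are Benjamini-Hochberg values over 43 tests of shares and ratios, unless genes are named as the family. The read names put the IFN with etoposide library in another sequencing run than IFN alone, so run and etoposide cannot be told apart within the pair. The replicate 2 pair and the DRB pair (an inhibitor of transcription elongation) had the same layout of runs, while the replicate 1 pair was read in a single run. Nothing in the labels says that libraries came from separate cultures. The cell label was checked on antigen receptor loci: all such prey lay in the kappa locus in both libraries, 335 with etoposide and 433 in IFN alone, with 0 in the heavy chain and 0 in the T cell receptor alpha locus.

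Far more bait ends were joined to distant DNA in the IFN with etoposide library. Prey, meaning junctions over 1 Mb from the break, made up 52.97% of junctions with etoposide (3622 of 6838) and 15.1% in IFN alone (648 of 4278), a difference of 37.8 percentage points (95% interval 36.2 to 39.4). Prey were also counted per junction near the bait, within 1 Mb, which takes the number of reads out of the comparison, and of these there were 3216 with etoposide and 3630 in IFN alone. Prey outside antigen receptor loci numbered 3287 with etoposide and 215 in IFN alone, which is 1022 and 59.2 per 1000 near junctions. The ratio was 17.3 (95% interval 14.9 to 20.0).

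The ratio was high on other chromosomes, on chromosome 6 and between 20 kb and 1 Mb from the break, and kappa prey did not share it. Other chromosomes carried 623 prey per 1000 near junctions with etoposide (2004 junctions) and 40.2 in IFN alone (146 junctions), a ratio of 15.5 (13.0 to 18.4). Chromosome 6 outside antigen receptor loci carried 399 per 1000 with etoposide and 19.01 in IFN alone, a ratio of 21.0 (16.4 to 26.9). Between 20 kb and 1 Mb from the break there were 97 junctions with etoposide and 8 in IFN alone, a ratio of 13.7 per near junction. These were 3.02% of near junctions with etoposide and 0.220% in IFN alone, a difference of 2.80 points (2.19 to 3.46).

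Kappa prey, where RAG cuts were expected but not tested, stood at 104 per 1000 near junctions with etoposide and 119 in IFN alone. Their ratio of 0.873 had an interval that included no change (0.751 to 1.01). Since the other prey were so many more, the kappa share of all prey was 9.25% with etoposide and 66.8% in IFN alone. Within 1 kb of the break there were 768 junctions per 1000 near junctions with etoposide and 736 in IFN alone, a ratio of 1.04. As shares of near junctions these were 76.8% and 73.6%. The difference was 3.16 points (1.09 to 5.23, Fisher's exact test, adjusted p = 0.00652). From 1 to 20 kb junctions were fewer with etoposide, 202 against 262 per 1000 in IFN alone, a ratio of 0.772 (0.692 to 0.863). That interval is too wide, since it treats these junctions as independent of the near count that holds them.

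**Figure D1:**
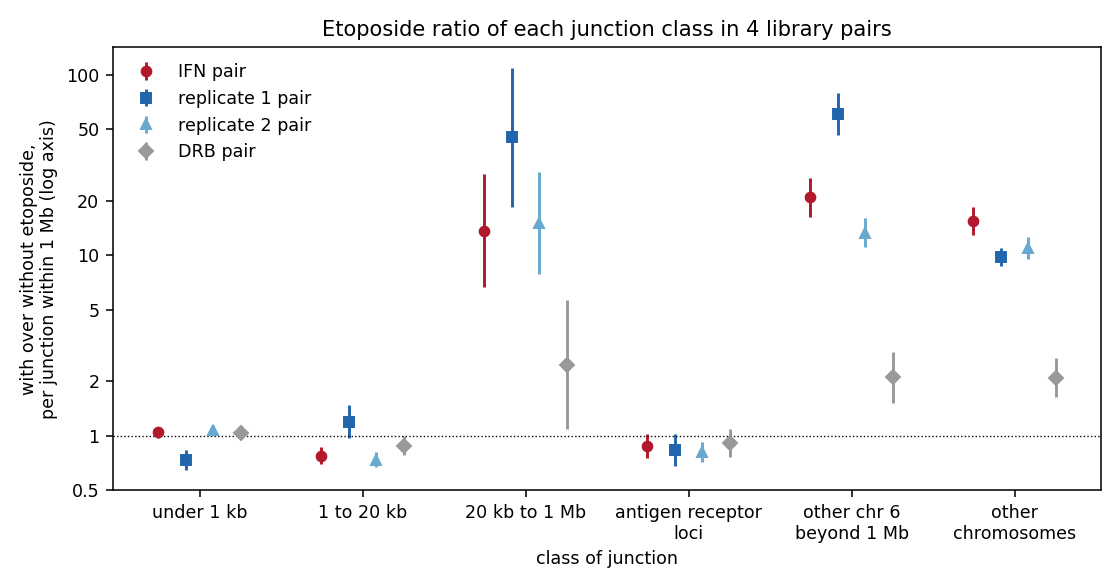
Ratio of junctions with over without etoposide per junction within 1 Mb of the break (log axis), for 6 classes of junction in 4 library pairs, with 95% counting intervals as bars. Bars of the classes within 1 Mb are too wide, since those classes are part of the near count. In the IFN pair (circles) the ratio is 13.7 to 21.0 for the classes beyond 20 kb outside antigen receptor loci and 0.873 for antigen receptor prey, and the DRB pair (diamonds) lies at 2.09 to 2.48 in those classes beyond 20 kb.

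In cells without IFN, etoposide was set against untreated cells in 2 pairs. Prey outside antigen receptor loci were 14.3 times as frequent per near junction with etoposide in the replicate 1 pair (12.8 to 16.0) and 11.8 times in the replicate 2 pair (10.5 to 13.2). In cells given DRB the ratio was 2.09 (1.71 to 2.56). The levels behind the ratios differed. Such prey per 1000 near junctions were 8604 with etoposide and 601 untreated in replicate 1. They were 821 and 69.8 in replicate 2, and 1022 and 59.2 in the IFN pair. The median aligned length over all prey was 270 bases with etoposide and 252 untreated in replicate 1, and 77 in both libraries of the IFN pair. The IFN ratio divided by the DRB ratio was 8.25 (6.43 to 10.6), by the replicate 2 ratio 1.47 (1.22 to 1.77) and by the replicate 1 ratio 1.20 (1.00 to 1.45). The comparison with replicate 1 turned on the definition of near: it was 0.994 (0.825 to 1.20) when near meant 20 kb and 0.842 (0.694 to 1.02) when it meant 1 kb. Within chromosome 6 the ratio was 21.0 in the IFN pair, 60.6 in the replicate 1 pair and 13.4 in the replicate 2 pair.

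On the centromere side of chromosome 6 the prey thinned out with distance from the break in the IFN with etoposide library, and on the telomere side they did not do so evenly. Per Mb and per 1000 near junctions there were 8.86 prey at 1 to 5 Mb on the centromere side, 5.10 at 5 to 10 Mb, 3.23 at 10 to 20 Mb and 1.38 at 20 to 40 Mb. On the telomere side the sequence was 0.311, 6.16, 3.14 and 1.26 over the same distances, with 2.87 beyond 40 Mb. The nearest telomeric bin was thus the sparsest, with 4 junctions against 114 in its centromeric counterpart, and the farthest bin held 629. In IFN alone no bin exceeded 0.441, and the 1 to 5 Mb bins held 0 junctions on the centromere side and 2 on the telomere side. The centromere side took 29.8% of chromosome 6 prey outside antigen receptor loci with etoposide (382 of 1283) and 13.0% in IFN alone (9 of 69), a difference of 16.7 points (6.15 to 24.1, Fisher's exact test, adjusted p = 0.00614).

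**Figure D2:**
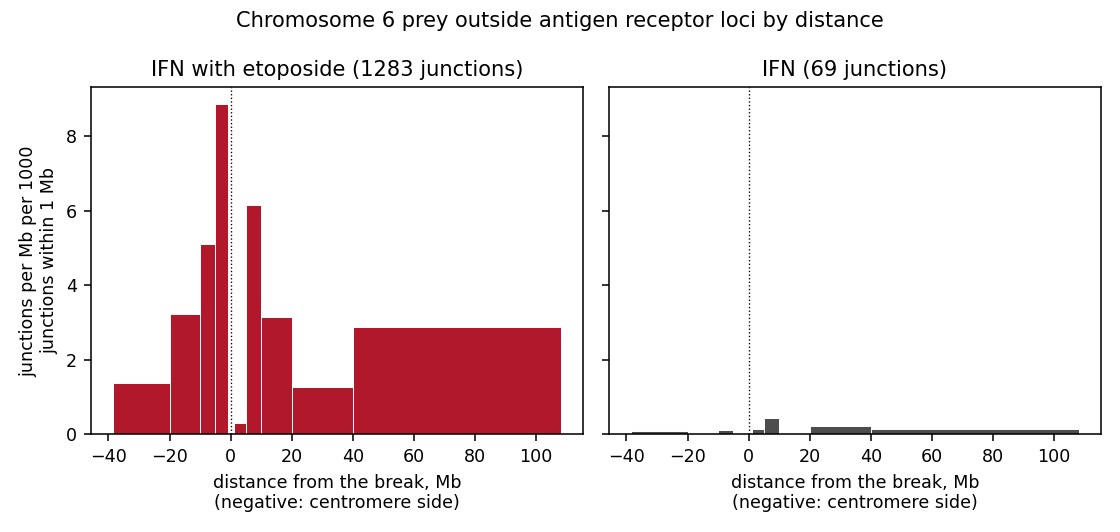
Prey on chromosome 6 outside antigen receptor loci per Mb and per 1000 junctions within 1 Mb, by distance from the break in Mb, with the centromere side negative; the IFN with etoposide library is on the left and IFN on the right, on the same axis. The bars with etoposide reach 8.86 next to the break on the centromere side, and no bar in IFN exceeds 0.441.

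Chromosome 6 held 39.0% of prey outside antigen receptor loci with etoposide and 32.1% in IFN alone, while it makes up 5.70% of the annotated length. That difference of 6.94 points did not pass (Fisher's exact test, adjusted p = 0.0714). Among the other 19 chromosomes, prey per Mb with etoposide ranged from 0.406 on the X to 1.46 on chromosome 11. Chromosome 19 had 1.34, and both 11 and 19 are rich in genes. Chromosome 7, with the most genes per Mb (14.2), had 0.886. Across these 19 chromosomes, which share a library, Pearson's r between prey per Mb and protein-coding genes per Mb was 0.777 with etoposide (Spearman's rho 0.749) and 0.112 in IFN alone (rho 0.177, 146 junctions).

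Prey of the IFN with etoposide library lay in genes more often than those of IFN alone. Off chromosome 6, 66.4% of prey fell in protein-coding gene bodies with etoposide (1331 of 2004) and 47.9% in IFN alone (70 of 146), where gene bodies cover 39.9% of the annotated length. The difference was 18.5 points (9.80 to 27.1, Fisher's exact test, adjusted p = 5.03e-05). The etoposide libraries without IFN gave 67.1% and 67.7%.

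Ends of genes were also joined more often. Within 5 kb of a gene end, start or stop, lay 31.2% of prey with etoposide and 15.8% in IFN alone, where such windows cover 12.6%. The difference was 15.4 points (8.20 to 21.3, Fisher's exact test, adjusted p = 0.000168). With the strand known for 17274 genes (none on chromosome 18), 20.5% of prey lay within 5 kb of a start with etoposide (395 of 1929) and 9.79% in IFN alone (14 of 143), where the windows cover 6.91% (adjusted p = 0.00392, Fisher's exact test).

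Prey around starts were densest just downstream with etoposide. The first kb of the gene held 102 of the 1929 prey (5.29%), the next kb 76 (3.94%) and the kb before the start 40 (2.07%). IFN alone had 3, 0 and 2 of its 143 junctions in these bins. The downstream side held 70.4% of prey within 5 kb of a start with etoposide and 42.9% in IFN alone (6 of 14), which did not pass (Fisher's exact test, adjusted p = 0.0655). Prey in gene bodies ran along the gene's strand in 45.4% with etoposide (42.4 to 48.5) and 43.9% in IFN alone (30.7 to 57.6), a difference of 1.57 points (-12.5 to 15.0).

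**Figure D3:**
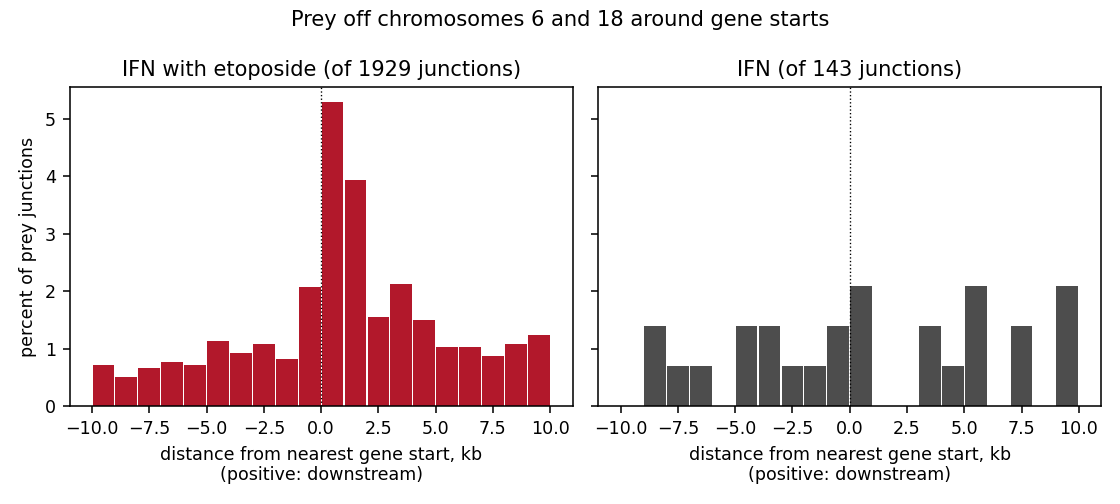
Percent of prey off chromosomes 6 and 18 in each kb around the nearest annotated gene start, with downstream positive; IFN with etoposide is on the left and IFN on the right. With etoposide the first kb downstream holds 5.29% and the second 3.94%, and IFN has 0 to 3 junctions per bin.

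Prey were spread over many genes. With etoposide 1603 genes (body and 2 kb on each side) held a junction, and in IFN alone 97 did, of 21521 protein-coding genes, and 32 held one in both. Off chromosome 6, 1244 genes were hit with etoposide, 1096 of them by a single junction and none by more than 4. Density depended on gene length: off chromosome 6 it was 1.97 junctions per Mb in genes under 20 kb, 1.86 from 20 to 50 kb, 1.99 from 50 to 100 kb, 1.30 from 100 to 300 kb and 0.390 above 300 kb. In IFN alone the same classes held 0.0777, 0.117, 0.0793, 0.0546 and 0.0505 per Mb.

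Only 14 genes reached 10 junctions over both libraries, and all 14 lie on chromosome 6. Of these, 13 had 0 junctions in IFN alone and reached that minimum through the etoposide library by itself, so the filter fixed their direction and their values are a description. A gene with 0 junctions in IFN alone was given the 3 counts that a count of 0 allows, and its fold is a lower bound that follows from its count. The bound lay past 4-fold for 9 of the 14 (64.3%). Exoc4 (chr6:33249090-33973979) had 27 junctions with etoposide and 0 in IFN alone, at least 10.2-fold higher. Iqsec1 (chr6:90659596-90988480), an exchange factor for ARF6, had 19 with etoposide and 0 in IFN alone, at least 7.15-fold higher.

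Shorter and longer genes stood side by side among the rest. Etnk1 (chr6:143166866-143208546), an ethanolamine kinase, had 16 junctions with etoposide and 0 in IFN alone, at least 6.02-fold higher. It spans 41.7 kb, whereas Exoc4 spans 724.9 kb. Snd1 (chr6:28480337-28935162) had 15 with etoposide and 0 in IFN alone, at least 5.64-fold higher, and the IP3 receptor gene Itpr2 had 14 with etoposide and 0 in IFN alone, at least 5.27-fold higher. The kinase gene Braf, the secreted factor gene Fam3c and the antiviral gene Zc3hav1 had 12 each with etoposide and 0 in IFN alone, and the IP3 receptor gene Itpr1 had 11 with etoposide and 0 in IFN alone.

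A bound of 3.76-fold, under the threshold, held for Etv6 (a transcription factor), Hipk2 (a kinase), Mical3 (an actin-oxidising enzyme) and Tmem178b (a membrane protein), each with 10 junctions with etoposide and 0 in IFN alone. Fisher's exact test adjusted over the 14 genes called all 14 (100%), which the minimum count had fixed for the 13 with 0 in IFN alone, so nothing is read from it.

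Foxp1 (chr6:98925342-99522746) was the gene joined most often in both libraries. It had 37 junctions with etoposide and 14 in IFN alone, which is 11.5 and 3.86 per 1000 near junctions and 2.98-fold higher. As a share of prey outside antigen receptor loci it held 1.13% with etoposide and 6.51% in IFN alone, a ratio of 0.173 (Fisher's exact test, adjusted p = 1.69e-05 over 14 genes). It was the 1 gene of 14 (7.14%) called on this scale. With 3 counts of 215 put in for 0, no count seen here could have been called higher with etoposide, so the other 13 genes say nothing on this scale. In IFN alone 5 of the 14 junctions lay within chr6:99240001-99260000, where the IFN with etoposide library had 0; this window was chosen after its counts were seen. The zinc finger gene Zfp956 was the other gene with at least 3 junctions in IFN alone, with 4 with etoposide and 5 in IFN alone.

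Off chromosome 6 the counts per gene were too low for a test. Aff1, Cyfip2, Cyth1, Hivep2, Rptor, Tgfbr2 and Uvrag had 4 junctions each with etoposide and 0 in IFN alone, and Bach2, Baz2b and Fbxo11 had 3 each with etoposide and 0 in IFN alone. Aff1 encodes a transcription elongation factor, Cyth1 an ARF exchange factor, Hivep2 a zinc finger factor, Rptor a subunit of the mTORC1 kinase, Tgfbr2 a TGF-beta receptor and Uvrag an autophagy factor. Bach2 encodes a repressor of B cells, Baz2b a bromodomain protein and Fbxo11 a ubiquitin ligase subunit. In the etoposide libraries without IFN, Cyfip2 had 6 and 2 junctions, Rptor 4 and 2, Cyth1 4 and 1, and Bach2 3 and 4. Aff1 had 3 and 1 there, Uvrag 3 and 0, Fbxo11 2 and 1, and Tgfbr2 and Baz2b 1 and 0 each. Hivep2 had 0 junctions in either. Its interval with IFN and etoposide was 0.0332% to 0.311% of prey outside antigen receptor loci. That overlapped the intervals of both these libraries, 0% to 0.0358% in the first and 0% to 0.112% in the second.

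Interferon-stimulated genes, the antiviral and signalling genes that interferons switch on, were joined in the IFN with etoposide library. Of 50 listed genes 12 held 42 junctions with IFN and etoposide, and 1 held 1 junction in IFN alone. The 42 junctions were 1.28% of prey outside antigen receptor loci (0.922 to 1.72). In the etoposide libraries without IFN the list held 30 of 10307 such prey (0.291%, 0.196 to 0.415) and 10 of 3296 (0.303%, 0.146 to 0.557), and in IFN alone 1 of 215 (0.465%, 0.0118 to 2.56). Off chromosome 6 it held 10 junctions with IFN and etoposide, against 4 and 1 with etoposide without IFN and 0 in IFN alone.

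Usp18 (chr6:121245906-121270917) carried 9 junctions with IFN and etoposide, 1 and 2 with etoposide without IFN, and 0 in IFN alone. Herc6, an ISG15 ligase in mice, carried 5 with IFN and etoposide, 1 and 2 with etoposide without IFN and 0 in IFN alone. Ifit2, an RNA-binding antiviral protein gene on chromosome 19, carried 3 with IFN and etoposide and 0 in the other 3 libraries. Zc3hav1 carried 12 with IFN and etoposide, 17 and 3 with etoposide without IFN, and 0 in IFN alone, and Parp11 carried 4, against 6 and 2 with etoposide without IFN and 0 in IFN alone. Stat2, Irf1, Irgm1 and Parp9 had 1 each with IFN and etoposide and 0 in the other 3 libraries. Ifih1 had 2 with IFN and etoposide, 0 in the other 3, and 1 in the second untreated library. Samd9l had 2 with IFN and etoposide, 1 in IFN alone, and 1 and 0 with etoposide without IFN. Gbp5, Parp14, Trim25 and Zbp1 went the other way, with 0 with IFN and etoposide and 1 each with etoposide without IFN. Of the 50 listed genes 38 had 0 with IFN and etoposide. These values are a description of a list chosen with results known, and the difference between libraries was not tested.

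Among receptors and signal transducers of interferon, 2 of 12 genes held 1 junction each with etoposide (Jak2, a kinase bound to cytokine receptors, and Pias1, a SUMO ligase), and 0 did in IFN alone. These 2 junctions came to 107.6 per 100000 prey and Mb, where prey are those outside antigen receptor loci, here and below. All 12 genes lie off chromosome 6, where all protein-coding genes came to 40.5 with IFN and etoposide. In the etoposide libraries without IFN the list held 12 and 2 junctions, or 205.8 and 107.3 per 100000 prey and Mb. B-lineage genes held 49 junctions in 8 of 25 genes with etoposide and 15 in 2 genes in IFN alone. Foxp1 gave 37 of these with etoposide and 14 in IFN alone, and the Ikaros gene Ikzf1 gave 3 with etoposide and 1 in IFN alone. Genes of other blood lineages held 0 junctions in both libraries over 22 genes. The upper bounds were 0.112% of prey outside antigen receptor loci with etoposide and 1.70% in IFN alone. Those genes span 0.464 Mb and the B-lineage list 2.49 Mb, so the 0 is not read as a contrast between lineages. Recurrent leukaemia translocation genes held 63 junctions in 10 of 28 genes with etoposide and 14 in 1 gene in IFN alone, led by Foxp1. The cyclin gene Ccnd2 had 6 of them with etoposide and 0 in IFN alone.

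Long neural genes, which break under replication stress in dividing cells, held 3 junctions in 3 of 30 genes with etoposide and 6 in 5 genes in IFN alone. Per 100000 prey outside antigen receptor loci and Mb this was 2.18 with etoposide and 66.7 in IFN alone. All protein-coding genes had 63.3 with etoposide and 48.5 in IFN alone. For interferon-stimulated genes it was 965.5 with etoposide and 351.4 in IFN alone, the second from 1 junction. Other lists had, with etoposide, 950.2 for immediate-early, 643.4 for housekeeping, 598.5 for B-lineage and 521.8 for leukaemia translocation genes. In IFN alone B-lineage genes had more, 2801.1, as had leukaemia translocation genes, 1772.7, and Foxp1 is in both lists. With etoposide, targets of p53 had 250.3 and topoisomerase and break repair genes 86.4. Off chromosome 6 the value with etoposide was 300.1 for interferon-stimulated, 717.3 for immediate-early and 40.5 for all protein-coding genes. There it was 232.7 for housekeeping, 193.2 for B-lineage and 109.8 for leukaemia translocation genes. B-lineage genes off chromosome 6 had 246.2 in IFN alone, from 1 junction. Immediate-early genes held 7 junctions in 6 of 23 genes with etoposide, among them Myc and Jun with 1 each, and 0 in IFN alone. Highly expressed housekeeping genes held 6 in 3 of 23, of which Hnrnpa2b1 on chromosome 6 held 4, and 0 in IFN alone. Targets of p53 held 5 in 4 of 22, and topoisomerase and break repair genes 7 in 6 of 29, with 0 in IFN alone for both lists.

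Within the kappa locus the share of each kind of segment and the segments themselves did not pass a test. Joining (J) segments took 7.16% of kappa prey with etoposide (24 of 335) and 6.93% in IFN alone (30 of 433), and V segments took 58.5% with etoposide and 54.7% in IFN alone. Prey over 1 kb from any segment made up 34.3% with etoposide and 38.3% in IFN alone, and none of these shares passed (Fisher's exact test, adjusted p = 1, 0.458 and 0.458 over 3 shares). V segments with a junction numbered 47 with etoposide and 56 in IFN alone. Of 17 segments with at least 10 junctions, 0 differed (0% of those tested) by Fisher's exact test adjusted over the 17.

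Igkv6-32 (chr6:70074024-70074584) took 22 junctions with etoposide and 18 in IFN alone. Igkv11-125 (chr6:67913573-67914052) took 16 with etoposide and 24 in IFN alone, and Igkj1 took 13 with etoposide and 13 in IFN alone. Prey that start with the heptamer CACAGTG, which would place the joined end on the signal side of a RAG cut, numbered 0 of 335 with etoposide and 1 of 433 in IFN alone.

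The joins themselves differed in structure. Among prey outside antigen receptor loci, direct joins without shared bases made up 10.0% with etoposide and 19.5% in IFN alone, a difference of -9.53 points (Fisher's exact test, adjusted p = 0.000168). Joins with inserted bases made up 2.71% with etoposide and 9.77% in IFN alone, a difference of -7.06 points (adjusted p = 8.33e-06, Fisher's exact test). Joins with exactly 3 shared bases made up 25.4% with etoposide (835 of 3287) and 8.84% in IFN alone (19 of 215), a difference of 16.6 points (11.7 to 20.3, adjusted p = 2.02e-08, Fisher's exact test). Joins with at least 4 shared bases made up 34.9% with etoposide and 28.8% in IFN alone, which did not pass (Fisher's exact test, adjusted p = 0.112).

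Kappa joins differed less. Exactly 3 bases were shared by 26.0% of them with etoposide and 18.5% in IFN alone (Fisher's exact test, adjusted p = 0.0279). Direct joins made up 6.57% with etoposide and 4.62% in IFN alone, with an interval of the difference from -1.47 to 5.61 points. When kappa prey were counted with the rest, the difference in direct joins was 0.123 points, so the lower share with etoposide holds for prey outside antigen receptor loci.

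**Figure D4:**
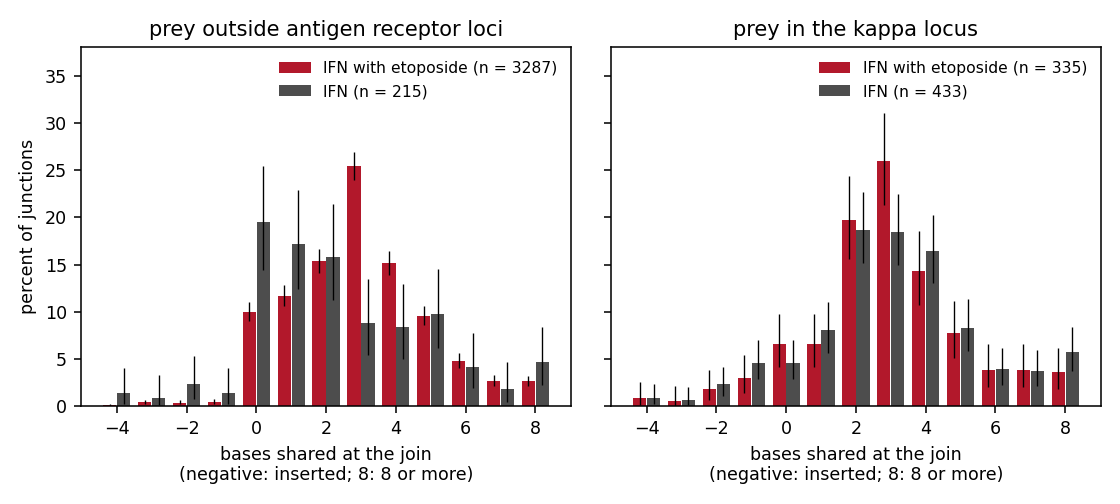
Percent of junctions by the number of bases shared between bait and prey (negative: bases inserted; 8 stands for 8 or more), for prey outside antigen receptor loci on the left and in the kappa locus on the right, with 95% binomial intervals. Outside antigen receptor loci the bar at 3 shared bases stands at 25.4% with etoposide and 8.84% in IFN.

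The bait had been shortened further in joins with etoposide. Outside antigen receptor loci the median bait end lay 70 bases inside the break with etoposide and 44 in IFN alone, and 66.4% of bait ends with etoposide and 39.5% in IFN alone lay over 50 bases inside (difference 26.8 points, 19.7 to 33.6, Fisher's exact test, adjusted p = 8.04e-14). Without the bait ends 71 to 73 bases inside the break, described next, the shares were 55.7% with etoposide and 38.4% in IFN alone, a difference of 17.3 points (10.1 to 24.1), and the medians were 53 with etoposide and 43 in IFN alone. For kappa prey the medians were 22 with etoposide and 25 in IFN alone, and for junctions near the bait both were 41. The median length of aligned prey was 77 bases with etoposide and 70 in IFN alone.

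Bait ends with etoposide piled up at 1 place. The positions 71, 72 and 73 bases inside the break held 258, 440 and 95 of 3287 bait ends outside antigen receptor loci, 24.1% together, and 4 of 215 (1.86%) in IFN alone. Kappa prey had 2.09% there with etoposide and 0.693% in IFN alone, and junctions near the bait 1.49% with etoposide and 0.992% in IFN alone. Outside antigen receptor loci the etoposide libraries without IFN had 18.4% and 21.0% there, the untreated ones 0.889% and 4.08%, and the DRB with etoposide library 3.94%. These positions were chosen after their counts were seen, so no test is given. They are the capitals of the bait shown above, next to a run of C.

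With 3 shared bases, the bases were CCC in 148 joins and CCA in 115 of the 835 with etoposide, as in the Exoc4 and Snd1 joins shown above. In IFN alone no triplet was shared by more than 2 of 19 joins. Away from positions 71 to 73 exactly 3 bases were still shared by 23.0% of joins with etoposide and 8.53% in IFN alone. With these bait ends left out, prey outside antigen receptor loci were 13.4-fold higher per near junction.

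**Figure D5:**
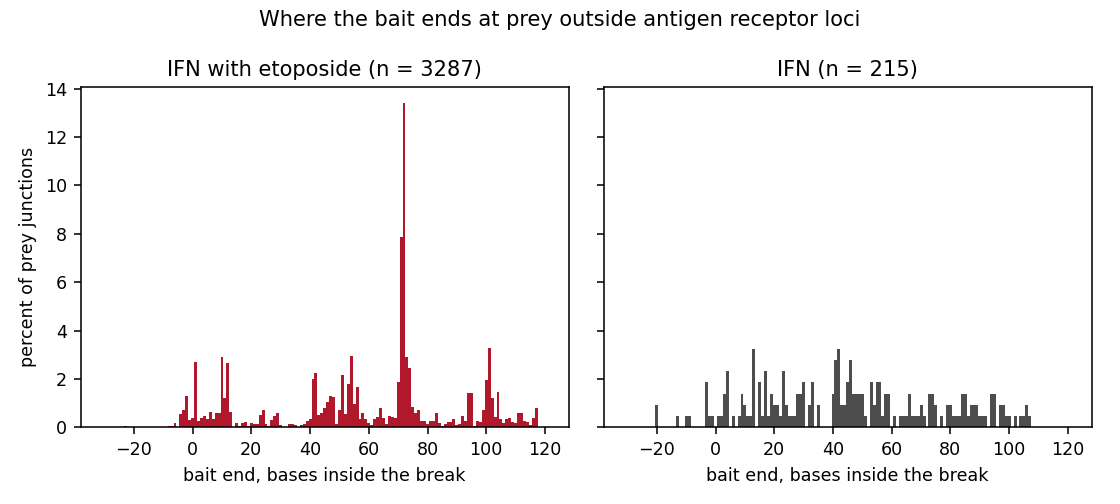
Percent of prey outside antigen receptor loci by the position of the bait end in bases inside the break, with IFN with etoposide on the left (3287 junctions) and IFN on the right (215 junctions). With etoposide, positions 71 to 73 hold 24.1% of bait ends, against 1.86% in IFN.

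Outside antigen receptor loci hardly any position was joined in both libraries, and the same held against other libraries. Of 3279 such positions with IFN and etoposide, 1 was also found in IFN alone. In the etoposide libraries without IFN 2 and 3 were found, and in the second untreated library 2. Of 333 positions in the kappa locus, 23 were also found in IFN alone. Reads identical in both libraries numbered 9, all near the bait.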

How the data were processed

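Per the labels, the libraries are junction tables, 1 per library, with each read's bait and prey alignments; per the submitters' processing notes the builds were mm10 and GRCm38.p2 and bedtools was used. The aligner and the filters are not given in the sources used here. The deposited tables hold positions and reads, and no value needed normalizing. Junctions were read as deposited (17 of the pair lay off chromosomes 1 to 19 and X). Prey lay over 1 Mb from the break. Antigen receptor loci and genes came from RefSeq (GRCm38.p6), and gene starts from a RefSeq promoter table without chromosome 18. A gene was tested at 10 or more junctions and called at 4-fold, with 3 counts in place of 0. Shares were compared with Fisher's exact test (scipy 1.17.1, pandas 2.3.3, Python 3.11.15), with Clopper-Pearson 95% intervals. The genes named were the 10 with most junctions on and off chromosome 6, those with 3 or more in IFN alone, those called, and up to 4 of each list. Members and the 10 gene lists (264 entries) were chosen with earlier results of these data known. Totals of 6838 and 4278 junctions set the precision. The value of 1 list member is not reported here.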

Additional observations from a re-analysis of the deposited data

Results flagged for a closer look

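The change with etoposide in prey outside antigen receptor loci per near junction was larger in the IFN pair than in the DRB and replicate 2 pairs, and in the setting reported also than in the replicate 1 pair, by the interval of the ratio between pairs. The IFN ratio was 8.25 times that of the DRB pair, 1.47 times that of the replicate 2 pair and 1.20 times that of the replicate 1 pair. Each interval covers counting error only, between single libraries, and the value against replicate 1 had its lower bound at 1.00. The replicate 1 libraries also stood at another level, with 8604 such prey per 1000 near junctions with etoposide and 601 untreated. The IFN pair had 1022 and 59.2. Against replicate 1 the direction turned when near meant 20 kb (0.994, 0.825 to 1.20) or 1 kb (0.842, 0.694 to 1.02). Its interval also included 1 with prey alignments of at least 50 bases (0.947 to 1.43) and per antigen receptor prey (0.866 to 1.52).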

How the results depend on the processing

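Of 73 alternative settings over 14 results, 64 kept the direction and the side of the threshold. Some of the 64 could not change. Setting prey beyond 10 Mb or 500 kb leaves the gene body and gene end shares off chromosome 6 untouched. Counting antigen receptor loci in turned the difference in the chromosome 6 share of prey to -32.8 points and that in direct joins to 0.123 points, since kappa prey are then part of the count. The IFN ratio over the replicate 1 ratio was 1.16 with prey alignments of at least 50 bases, 1.15 per antigen receptor prey, 0.994 with near as 20 kb and 0.842 with near as 1 kb; the cause was not tested. The difference in bait ends over 50 bases inside was 17.3 points without those at 71 to 73 bases, against 26.8. Genes higher per near junction numbered 14 at 2-fold and 14 by Fisher's exact test, against 9 at 4-fold. With a minimum of 5 or of 1 junction they numbered 12, which was counted as kept. Genes that differed per prey numbered 2 at a minimum of 5 junctions, against 1. The near-bait denominators and the omission of bait ends at 71 to 73 bases were chosen after seeing the data. No paired analysis was possible because each side of the pair is 1 library. No setting could leave out a replicate. With 215 prey outside antigen receptor loci in IFN alone, a class with 0 of them may still hold up to 1.70%.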

Other observations

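Among 20 kb windows outside antigen receptor loci and over 1 Mb from the break, a pair outside protein-coding genes held the most junctions in the IFN with etoposide library. The window chr2:98660001-98680000 had 13 with IFN and etoposide and 1 in IFN alone, and it had 80 in the first untreated library. The window chr14:19400001-19420000 had 8 with IFN and etoposide and 0 in IFN alone, and it had 9 in the first untreated library. The first 28 bases of prey outside antigen receptor loci had a median GC content of 53.6% with IFN and etoposide and 46.4% in IFN alone. In the kappa locus it was 46.4% with IFN and etoposide and 42.9% in IFN alone, with means of 44.8% and 43.6%. Among the other libraries without etoposide the kappa median was 46.4% in the second untreated and the DRB library and 42.9% in the rest. The kappa difference was not tested.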
